A study of Caenorhabditis elegans with 14 samples.

Results

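The comparison described here set day 1 adult worms labelled pycr-1(wrm22) against wild-type worms, in total RNA. Caenorhabditis elegans is a small nematode whose adult hermaphrodite is made of differentiated body tissue around a large gonad that makes oocytes after a burst of sperm production. pycr-1 encodes pyrroline-5-carboxylate reductase, the enzyme that closes the synthesis of proline, an amino acid that collagen and other cuticle proteins hold in large amounts. The members were the genes that the authors had tested in total RNA and that reached 1 FPKM in each group, with each gene name and locus taken once. There were 12369 such genes of 15557 tested and of 41875 entries in all. The rule used no direction of change.

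The mutant-labelled group held 4 libraries of total RNA from the strain with the wrm22 allele of pycr-1, and the wild-type group held 3 libraries from the Bristol N2 strain. Both were grown at 20 °C on OP50, the standard Escherichia coli food of the worm, and about 12000 day 1 adults were harvested for each genotype and replicate into a lysis buffer with cycloheximide, a drug that holds ribosomes on the mRNA. The mutant group is 1 strain with 1 allele, and the labels do not state what that allele changes in the gene. Nor do they say whether replicates came from separate cultures, so p-values measure only the spread between these libraries. From the same harvests, polysomal RNA gave 4 and 3 further libraries, which are used below only where a member's value there is set beside its value in total RNA.

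All FPKM below are the authors' deposited values, 1 pooled value per gene and group on build WBcel235 (FPKM corrects a fragment count for the length of the transcript and the size of the library), so no spread between libraries could be seen and it could not be said whether the groups overlapped. A gene "passed" where the authors' deposited table gives an adjusted p under 0.05, from their Cuffdiff test. The change of a gene is given as a centred log2 fold change, mutant-labelled over wild type, less the median of the 8484 genes that reached 5 FPKM in each group. That median was -0.35, a ratio of 0.784, so a gene with equal FPKM in both groups has a centred change of 0.35. The sign ± marks an SE derived from the deposited test statistics, for which the variance of a group was shared out over its libraries, and its median over the members was 0.19. Read as they stand, the deposited statistics give a median SE of 0.35, larger by 1.88 times in the median gene. A gene "rose" or "fell" here where it passed and its change had the same sign with and without centring, and it did so 2-fold where its centred change also reached 1 or -1.

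Of the 12369 genes, 2147 rose (17.4%) and 4036 fell (32.6%). Past 2-fold the split was the other way, with 1541 rises (12.5%) and 81 falls (0.655%). Falls were many and shallow, rises fewer and steep. The 4036 genes that fell had a median centred change of -0.27, and 3494 of them (86.6%) lay within 0.5 of the centre. The genes that rose had a median of 1.18. The second split depends on the centre: without centring 691 genes rose (5.59%) and 264 fell (2.13%) 2-fold. The first split depends on the test and its error. A Wald test of the centred change, with the SE given above, gave 3981 rises (32.2%) and 970 falls (7.84%), and with the deposited statistics read as they stand 367 genes rose (2.97%) and 278 fell (2.25%). The median over all members was 0.21 (-0.14 uncentred), with quartiles of -0.19 and 0.72.

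**Figure D1:**
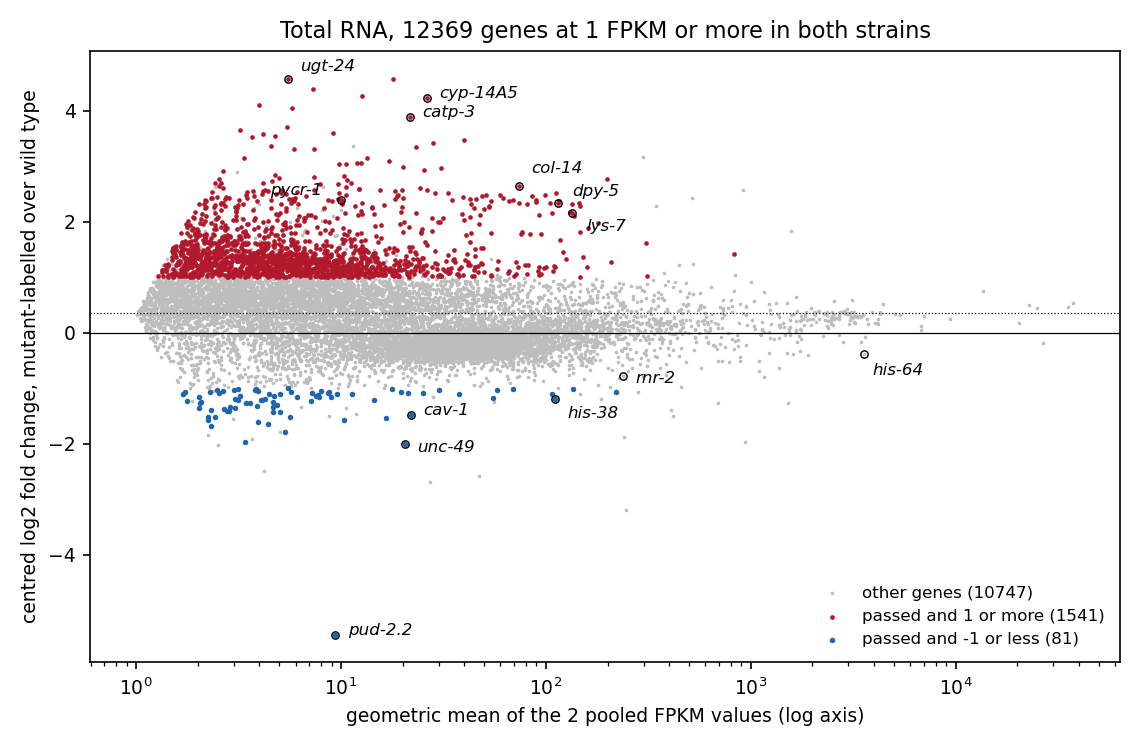
Centred log2 fold change (mutant-labelled over wild type, vertical axis) against the geometric mean of both pooled FPKM values (log axis) for all 12369 genes, 1 point per gene. Red marks the 1541 genes that rose 2-fold and blue the 81 that fell 2-fold, the red points crowd at low levels, and the dotted line marks equal FPKM in both groups.

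Level and direction went together. Among the 3370 genes with a geometric mean of 1 to 5 FPKM over the groups, 25.8% rose and 6.68% fell, with a median centred change of 0.64 (0.29 uncentred). From 5 to 20 FPKM, 25.5% of 3387 genes rose and 21.6% fell, with a median of 0.48 (0.13 uncentred). From 20 to 100 FPKM, 7.44% of 4436 genes rose and 60.9% fell, with a median of -0.15 (-0.50 uncentred). Among the 1176 genes at 100 FPKM or more, 7.23% rose and 32.2% fell, with a median of 0.13 (-0.22 uncentred). Of the 1541 genes that rose 2-fold, 957 (62.1%) stood under 5 FPKM in wild type, as did 28.97% of all members. The wild-type value is also the denominator of the ratio, so the first share is raised by construction.

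The gene named by the strain was higher, not lower, in the worms labelled as its mutant. In the authors' deposited table, pycr-1 (chromosome X, 12146832 to 12148529) had 20.3 FPKM in mutant-labelled and 4.91 FPKM in wild-type worms, a centred change of 2.40 ± 0.20. A value for the whole gene leaves unsaid which exons were read, so it could not check the labels, and every direction below rests on them.

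Gene families were set side by side to see which kinds of genes moved. Named genes follow a rule based on level and size of change, and the lists hold genes of known function in the worm. For each list the counts and the median centred change are read against the 17.4% of all members that rose, the 32.6% that fell and the median of 0.21. These baselines differ with level. From 1 to 5 FPKM 6.68% of members fell, with a median of 0.64, and from 20 to 100 FPKM 60.9% fell, with a median of -0.15. Lists differ in level too, and the part of level in their values was not tested. In RNA of whole worms, fewer cells of a type and less RNA per cell cannot be told apart.

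**Figure D2:**
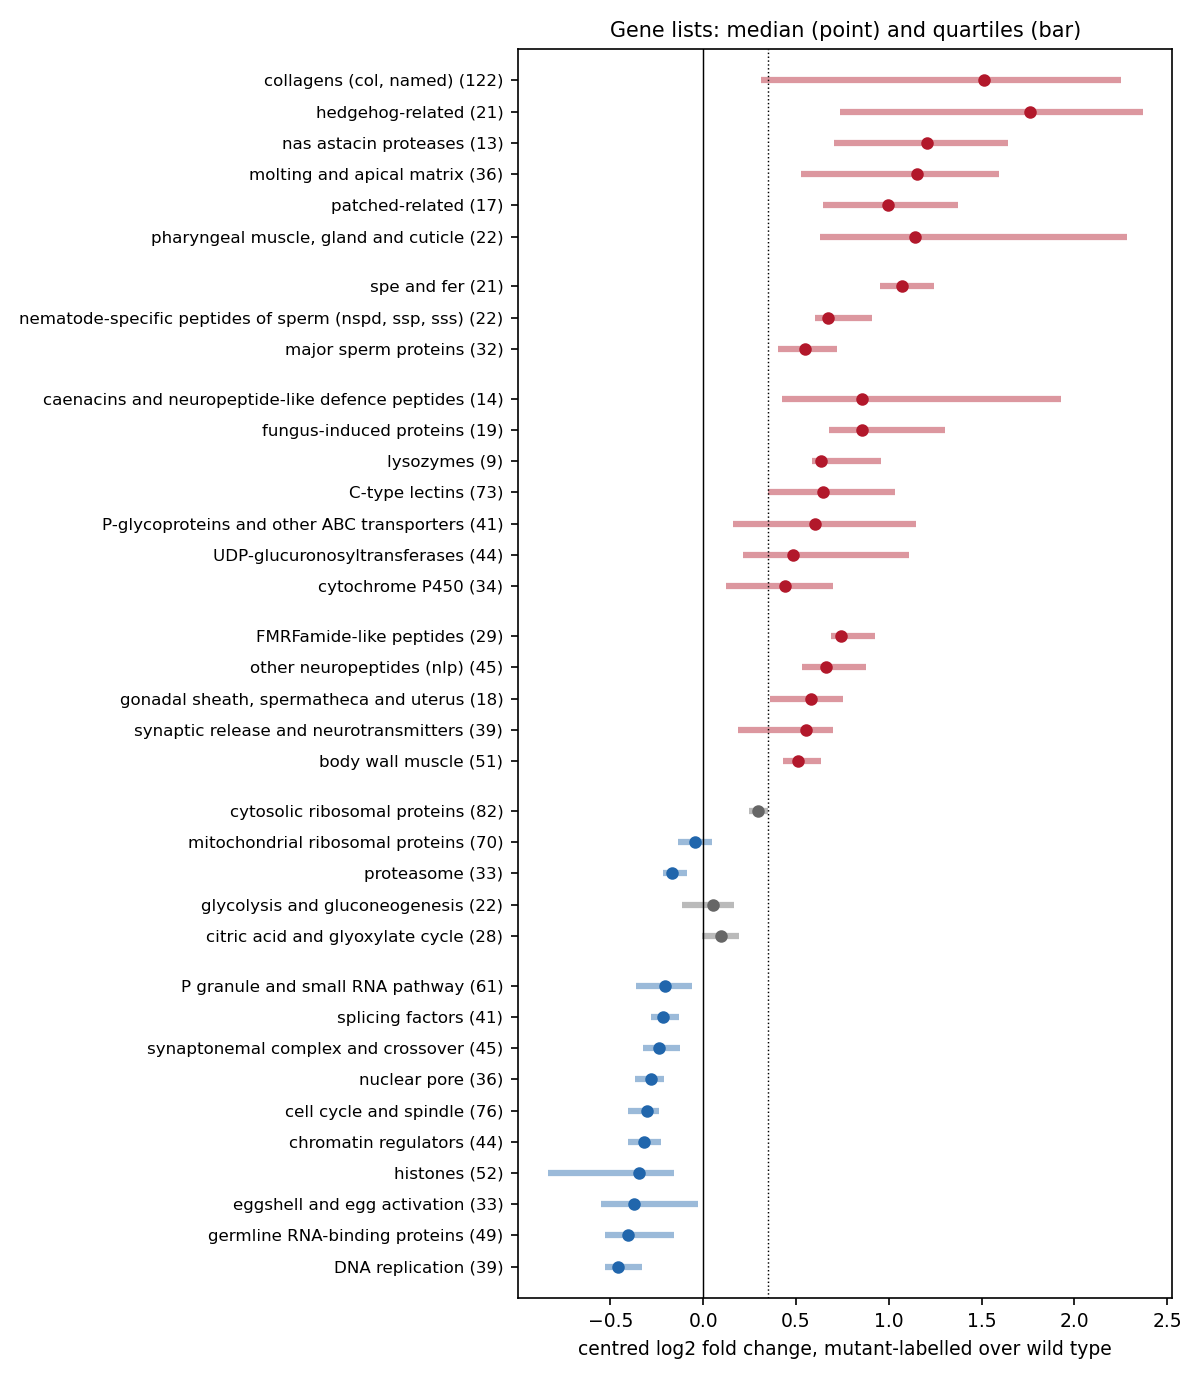
Median (point) and quartiles (bar) of the centred log2 fold change of gene lists, with the number of members in brackets, red for medians above equal FPKM, blue for medians below 0 and grey between. Collagens and hedgehog-related genes have medians of 1.51 and 1.76, DNA replication genes one of -0.46, and the dotted line marks equal FPKM in both groups.

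Most genes that build the cuticle rose. The cuticle is the collagen-rich coat that the epidermis secretes anew at each larval molt and once more for the adult; molting genes are therefore used in pulses and are low between them. Of 204 genes in the families of cuticle and molting, 59.8% rose, 111 genes of them 2-fold, and 21 genes fell, with a median of 1.29 (0.94 uncentred). Collagens, whose triple helices form the coat, counted 74 rises, 71 of them 2-fold, and 17 falls, and 31 members did not pass. Their median was 1.51 (1.16 uncentred). Without centring 54 collagens were still 2-fold higher, and of the 95 at 5 FPKM or more in both groups 61 rose and 15 fell.

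Among collagens of high level, col-14 had 164 FPKM in mutant-labelled and 33.3 FPKM in wild-type worms, by the authors' deposited table, a centred change of 2.65 ± 0.23. rol-6, whose mutants roll because the cuticle is twisted, had 23.3 FPKM in mutant-labelled and 4.82 FPKM in wild-type worms (2.62 ± 0.21). dpy-4, one of the collagens whose loss shortens the body, had 133 FPKM in mutant-labelled and 32.6 FPKM in wild-type worms (2.38 ± 0.17). The protease gene dpy-5, which encodes the convertase that trims procollagens, had 229 FPKM in mutant-labelled and 57.5 FPKM in wild-type worms (2.34 ± 0.17). All 4 rose 2-fold, and the mutant-labelled value was the higher in each.

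The most abundant collagens did not share this. col-140 had 2342 FPKM in mutant-labelled and 3074 FPKM in wild-type worms, a centred change of -0.04 ± 0.16. col-124 had 2186 FPKM in mutant-labelled and 2627 FPKM in wild-type worms and did not pass (0.09 ± 0.16). col-20 had 1509 FPKM in mutant-labelled and 2074 FPKM in wild-type worms (-0.11 ± 0.16), and col-119 had 1397 FPKM in mutant-labelled and 2011 FPKM in wild-type worms (-0.18 ± 0.17). By the authors' deposited test col-140, col-20 and col-119 fell, with centred changes close to 0. col-19, the collagen long used to mark the adult epidermis, had 1020 FPKM in mutant-labelled and 1251 FPKM in wild-type worms and did not pass, with an adjusted p of 0.11 by the authors' deposited table. The collagens' share of all summed FPKM was 3.30% in mutant-labelled and 3.11% in wild-type worms, with no error to set them against.

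Around the collagens, the secreted and membrane proteins of the molt moved the same way. Hedgehog-related genes, a nematode family of secreted proteins with a signal-like processing domain, counted 14 rises and 1 fall among 21, with a median of 1.76 (1.41 uncentred). Only 9 of them stood at 5 FPKM or more in both groups, of which 5 rose, with a median of 0.74. wrt-6 had 5.46 FPKM in mutant-labelled and 1.08 FPKM in wild-type worms (2.69 ± 0.24), and grl-21 had 53.5 FPKM in mutant-labelled and 11.1 FPKM in wild-type worms (2.61 ± 0.20). Patched-related genes, whose proteins resemble the hedgehog receptor of other animals, counted 10 rises and 1 fall among 17, with a median of 1.00. ptr-4, needed to shed the old cuticle, had 4.28 FPKM in mutant-labelled and 1.13 FPKM in wild-type worms (2.27 ± 0.22). ptr-2, the member at the highest level, went the other way, at 44.1 FPKM in mutant-labelled and 85.6 FPKM in wild-type worms (-0.61 ± 0.15).

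Astacin proteases of the nas family, some of which digest cuticle, counted 8 rises and no fall among 13. nas-38 had 5.83 FPKM in mutant-labelled and 1.098 FPKM in wild-type worms (2.76 ± 0.22). Of 36 genes of molting and the apical matrix, 23 rose and 3 fell, with a median of 1.15. Among them were lpr-3, a lipocalin of the precuticle, at 4.16 FPKM in mutant-labelled and 1.12 FPKM in wild-type worms (2.24 ± 0.23), and mlt-11, a protease inhibitor, at 4.53 FPKM in mutant-labelled and 1.301 FPKM in wild-type worms (2.15 ± 0.35). egg-6, a leucine-rich protein of the excretory duct's matrix, had 56.6 FPKM in mutant-labelled and 111.7 FPKM in wild-type worms (-0.63 ± 0.15). The pharynx has a cuticle of its own, and of 22 genes of pharyngeal muscle, gland and cuticle 13 rose and none fell. Among the pharynx markers the muscle genes myo-1, myo-2, tnc-2 and tni-4 did not pass, nor did phat-3. myo-1 had 33.9 FPKM in mutant-labelled and 30.8 FPKM in wild-type worms, and tni-4 had 53.5 FPKM in mutant-labelled and 44.2 FPKM in wild-type worms. phat-2, a toxin-like gland protein, had 7.79 FPKM in mutant-labelled and 1.81 FPKM in wild-type worms (2.45 ± 0.26), and abu-14, a protein of the pharyngeal cuticle, had 17.5 FPKM in mutant-labelled and 4.25 FPKM in wild-type worms (2.39 ± 0.20). Most of these genes were at low levels: only 11 of the 36 molting genes and 11 of the 22 pharyngeal genes stood at 5 FPKM or more in both groups, of which 5 and 3 rose.

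Markers of the molting larva rose as well, but ptr-4 and mlt-11 among them are genes already given above. The lists thus share members, and the markers are no separate support for the rise of the cuticle genes. Of the 5 at 1 FPKM or more in both groups 4 rose and none fell, and the 7 listed summed to 38.9 FPKM in mutant-labelled and 20.0 FPKM in wild-type worms. Epidermal markers counted 4 rises, all 2-fold, and 1 fall among 7 at 1 FPKM or more, with a median of 1.87. The 4 rises were the collagens dpy-7, col-10, rol-6 and dpy-13, so they are no result apart from that of the collagens. Like col-19, elt-3 did not pass, at 11.1 FPKM in mutant-labelled and 9.95 FPKM in wild-type worms. The entry lin-26,lir-1 fell, at 76.4 FPKM in mutant-labelled and 118 FPKM in wild-type worms. All 8 listed summed to 1353 FPKM in mutant-labelled and 1443 FPKM in wild-type worms, most of it from col-19, and without col-19 to 333 FPKM in mutant-labelled and 192 FPKM in wild-type worms. Neither list had a member at 0 in both groups, and their part in the cuticle result was not tested.

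**Figure D3:**
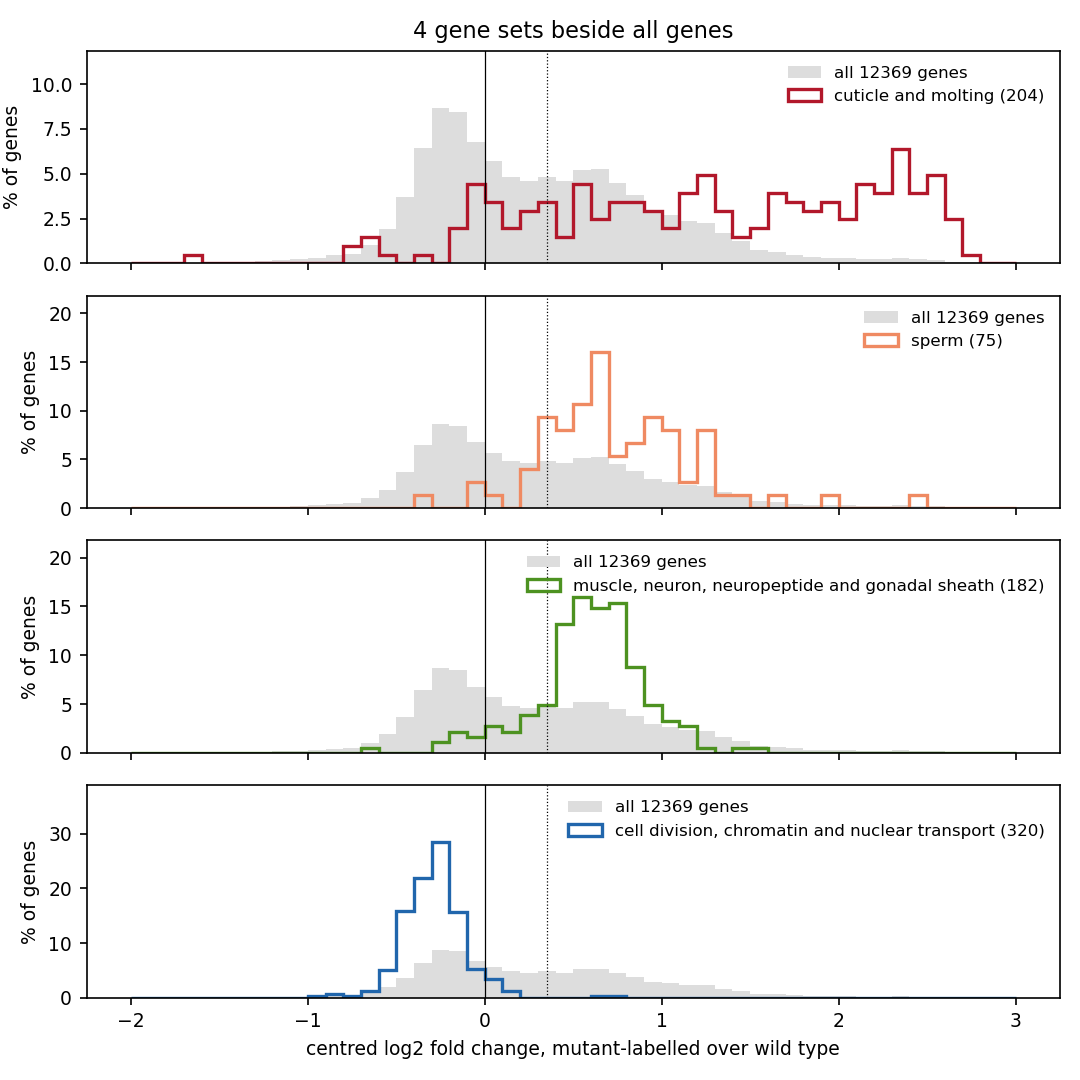
Share of genes (percent, vertical axis) by centred log2 fold change in 4 gene sets (coloured lines) over all 12369 genes (grey), from top to bottom cuticle, sperm, body tissue and cell division. The cuticle set spreads up to 2.76 and the division set forms a narrow peak just below 0. The dotted line marks equal FPKM in both groups, and 36 of all genes lie outside the range drawn.

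Some genes of the sperm program rose as well, by less. Sperm form once, before the germline switches to oocytes, and are stored in the spermatheca for the eggs to come. Of 75 sperm genes (spe and fer genes, major sperm proteins and sperm peptides), 32 rose (42.7%), 2 fell and 41 did not pass. Their median was 0.69 (0.34 uncentred). Without centring 4 of them rose 2-fold. With the deposited statistics read as they stand 1 rose, and by the Wald test of the centred change 61 rose. The spe and fer genes, which are needed to make or activate sperm, counted 15 rises and 2 falls among 21, with a median of 1.07. fer-1, a ferlin of membrane fusion in sperm, had 4.89 FPKM in mutant-labelled and 2.56 FPKM in wild-type worms (1.29 ± 0.17), and spe-4, a presenilin of sperm organelles, had 11.5 FPKM in mutant-labelled and 6.07 FPKM in wild-type worms (1.27 ± 0.18).

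Major sperm proteins, which form the crawling machinery of nematode sperm, counted 8 rises among 32, and the abundant copies did not pass. msp-59 had 405 FPKM in mutant-labelled and 335 FPKM in wild-type worms (0.62 ± 0.15, adjusted p = 0.119 in the authors' deposited table). Together they held 0.570% of summed FPKM in mutant-labelled and 0.429% in wild-type worms. The copies are so alike that reads may be shared out wrongly among them. Single rises lay in the germline lists given below, most members of which fell. alg-3 and alg-4, Argonautes of spermatogenesis, had 28.7 and 33.2 FPKM in mutant-labelled worms and 15.5 and 17.3 FPKM in wild type, with centred changes of 1.24 ± 0.15 and 1.29 ± 0.18. wago-10, another Argonaute, had 7.33 FPKM in mutant-labelled and 2.35 FPKM in wild-type worms (1.99 ± 0.19). fog-3, which directs germ cells to the sperm fate, had 4.01 FPKM in mutant-labelled and 2.31 FPKM in wild-type worms (1.14 ± 0.24).

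Annotation terms were read as well, and those named here were picked after their values were seen. Among 225 terms with 40 or more members, the highest medians belonged to structural constituent of cuticle (1.51) and collagen trimer (1.29), and were followed by tyrosine kinase and phosphatase terms. Of 87 genes with protein tyrosine phosphatase activity, 60 rose, 52 of them 2-fold, and 16 fell, with a median of 1.12 (0.77 uncentred). F10G8.1 had 16.3 FPKM in mutant-labelled and 6.51 FPKM in wild-type worms (1.67 ± 0.24), and T27A3.5 had 27.1 FPKM in mutant-labelled and 12.07 FPKM in wild-type worms (1.52 ± 0.17). The cell cycle phosphatases in the term fell, among them cdc-25.3 at 15.98 FPKM in mutant-labelled and 39.4 FPKM in wild-type worms (-0.95 ± 0.21), while cdc-25.4 rose, at 6.03 FPKM in mutant-labelled and 2.92 FPKM in wild-type worms (1.399 ± 0.23). Of 44 non-membrane tyrosine kinases, 30 rose and 6 fell. On chromosomes I to IV there were 25, 16, 18 and 22 of the phosphatase genes, 5 on V and 1 on X, while V held 18.1% and X 12.99% of all members.

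The genes of cell division and of the nucleus fell, nearly all of them and each by little. In the adult hermaphrodite only the germline divides, and it also loads the embryo's store of mRNA into oocytes. Of 320 genes of DNA replication, the cell cycle, meiotic crossing over, chromatin, RNA polymerase II and Mediator, splicing and nuclear transport, 286 fell (89.4%) and none rose, with a median of -0.29 (-0.64 uncentred) and quartiles of -0.39 and -0.19. By the Wald test of the centred change, 84 fell and 2 rose, so for most of the set the fall was not told apart from that of the median gene. The set's median levels were 41.2 FPKM in mutant-labelled and 64.9 FPKM in wild-type worms. Of all members from 20 to 100 FPKM 60.9% fell, with a median of -0.15. Among DNA replication genes 38 of 39 fell, with a median of -0.46 (-0.81 uncentred) and 23 falls by the Wald test of the centred change. rnr-2, the small subunit of ribonucleotide reductase, had 160 FPKM in mutant-labelled and 352 FPKM in wild-type worms (-0.79 ± 0.15). mcm-7, a subunit of the replicative helicase, had 76.5 FPKM in mutant-labelled and 154 FPKM in wild-type worms (-0.66 ± 0.15).

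In the cell cycle and spindle list 73 of 76 genes fell, with 21 falls by the Wald test of the centred change. cyb-3, a mitotic cyclin, had 188 FPKM in mutant-labelled and 370 FPKM in wild-type worms (-0.63 ± 0.15), and the kinase gene cdk-4 of entry into the cycle had 3.66 FPKM in mutant-labelled and 8.36 FPKM in wild-type worms (-0.84 ± 0.21). Nuclear pore genes counted 33 falls among 36, chromatin regulators 39 among 44, splicing factors 37 among 41 and genes of the synaptonemal complex and crossing over 35 among 45. set-25, a histone H3 lysine methyltransferase, had 28.7 FPKM in mutant-labelled and 51.6 FPKM in wild-type worms (-0.50 ± 0.15). No gene of these 4 lists rose.

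Histones are made for the replicating nucleus and include families of near-identical copies, so their values by copy are uncertain. Of 52 histone genes 38 fell, 8 of them 2-fold, and 1 rose, with a median of -0.35 (-0.70 uncentred). Of the 15 lowest centred changes among genes that passed at 20 FPKM or more in both groups, 10 were histones. his-38 had 64.9 FPKM in mutant-labelled and 190 FPKM in wild-type worms (-1.201 ± 0.17). The most abundant copy by mean, his-64, had 2768 FPKM in mutant-labelled and 4612 FPKM in wild-type worms (-0.39 ± 0.15). Histones together held 1.648% of summed FPKM in mutant-labelled and 2.36% in wild-type worms. The single rise was his-70, an H3 variant gene, at 23.5 FPKM in mutant-labelled and 9.66 FPKM in wild-type worms (1.63 ± 0.21).

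Oocyte genes stood below the division genes. All 14 oocyte markers at 1 FPKM or more in both groups fell, with a median of -0.53 (-0.88 uncentred), and 13 fell by the Wald test of the centred change. Together the oocyte markers under a name of their own summed to 2840 FPKM in mutant-labelled and 5326 FPKM in wild-type worms, and none was at 0. oma-2, a zinc finger protein of oocyte maturation, had 57.7 FPKM in mutant-labelled and 132 FPKM in wild-type worms (-0.85 ± 0.15). rme-2, the yolk receptor of the oocyte, had 201 FPKM in mutant-labelled and 445 FPKM in wild-type worms (-0.80 ± 0.15). lin-41, which holds the oocyte from maturing early, had 49.9 FPKM in mutant-labelled and 110 FPKM in wild-type worms (-0.79 ± 0.15).

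Of 49 germline RNA-binding protein genes 40 fell and 4 rose, and of 61 genes of P granules and small RNAs 47 fell and 3 rose. pos-1, which patterns the early embryo, had 256 FPKM in mutant-labelled and 510 FPKM in wild-type worms (-0.64 ± 0.15). The 3 members that rose in the small RNA list were the Argonautes given above. Of 33 eggshell and egg activation genes 24 fell and 2 rose. cpg-2, a chondroitin proteoglycan of the eggshell, had 657 FPKM in mutant-labelled and 1197 FPKM in wild-type worms (-0.52 ± 0.16), and the caveolin gene cav-1 had 11.6 FPKM in mutant-labelled and 41.2 FPKM in wild-type worms (-1.48 ± 0.19). The rises were spe-11, whose protein the sperm brings to the egg, and cpg-7 at 70.8 FPKM in mutant-labelled and 22.2 FPKM in wild-type worms (2.02 ± 0.17).

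Most genes of Notch and germline stem cell signalling fell as well. Of 16 such genes 12 fell and none rose, and 7 fell by the Wald test of the centred change. sygl-1 and lst-1, targets of the Notch receptor GLP-1 that keep germ cells dividing, had 21.4 and 32.1 FPKM in mutant-labelled worms and 38.7 and 56.6 FPKM in wild type, with centred changes of -0.51 ± 0.17 and -0.47 ± 0.16. glp-1 itself had 50.002 FPKM in mutant-labelled and 83.5 FPKM in wild-type worms (-0.39 ± 0.15). Markers of germline nuclei and meiosis summed to 894 FPKM in mutant-labelled and 1306 FPKM in wild-type worms, and 7 of 9 fell. Their median was -0.17 (-0.52 uncentred), and 2 fell by the Wald test of the centred change. The part of the germline and oocyte markers in the fall of the division genes was not tested.

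The 81 genes that fell 2-fold came from several families. Of 21 innexin genes, whose proteins form gap junctions, 6 rose and 4 fell, with a median of 0.54 (0.19 uncentred). Of these inx-2 and inx-3 fell 2-fold, and had 2.53 and 8.44 FPKM in mutant-labelled worms and 8.65 and 24.9 FPKM in wild type, with centred changes of -1.42 ± 0.21 and -1.21 ± 0.17. Of 28 homeobox genes 14 fell and 3 rose, with a median of -0.20 (-0.55 uncentred). Among them ceh-40, ceh-83 and ceh-49 had centred changes of -1.39 ± 0.26, -1.14 ± 0.19 and -1.12 ± 0.20. vet-2, a gene transcribed very early in the embryo, had 2.96 FPKM in mutant-labelled and 10.8 FPKM in wild-type worms (-1.52). Of 18 Skp1-related genes, whose proteins link F-box proteins to the ubiquitin ligase, 11 fell, 5 of them 2-fold, and 2 rose. skr-7 had 5.29 FPKM in mutant-labelled and 20.0 FPKM in wild-type worms (-1.57 ± 0.22), while the ubiquitous skr-1 had 134 FPKM in mutant-labelled and 156 FPKM in wild-type worms and did not pass (0.14 ± 0.15). Embryo markers summed to 150 FPKM in mutant-labelled and 243 FPKM in wild-type worms. Most of the sum came from pal-1, skn-1 and pie-1, which fell. They had 61.7, 41.5 and 39.3 FPKM in mutant-labelled worms and 107, 59.7 and 68.4 FPKM in wild type. hlh-1 and elt-1 did not pass, at 1.987 and 4.96 FPKM in mutant-labelled worms and 1.597 and 4.28 FPKM in wild type. By the Wald test of the centred change 1 of these 5 markers fell and 1 rose. The markers tbx-37, end-1, end-3, med-1 and sdz-19 stood under 1 FPKM in both groups. The part of embryos carried inside the adults in these values was not tested.

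Somatic tissue genes sat above the centre at nearly equal FPKM. Of 182 genes of muscle, neurons, neuropeptides and the gonadal sheath, 35 rose and 8 fell, with a median of 0.61 (0.26 uncentred). Their median levels were 10.5 FPKM in mutant-labelled and 8.12 FPKM in wild-type worms. All members from 5 to 20 FPKM had a median of 0.48 (0.13 uncentred). Body wall muscle counted 6 rises and 3 falls among 51 members, and 36 rises by the Wald test of the centred change, which asks about the distance from the centre and not from equal FPKM. myo-3, a myosin heavy chain, had 96.4 FPKM in mutant-labelled and 65.0 FPKM in wild-type worms (0.92 ± 0.15). unc-54, the major body wall myosin, had 758 FPKM in mutant-labelled and 707 FPKM in wild-type worms and did not pass (0.45 ± 0.17). FMRFamide-like peptide genes counted 7 rises and no fall among 29, other neuropeptide genes 12 rises and no fall among 45, and genes of synaptic release 4 rises and 5 falls among 39. flp-9 had 20.4 FPKM in mutant-labelled and 12.6 FPKM in wild-type worms (1.04 ± 0.19). tdc-1, tyrosine decarboxylase of the tyramine neurons and gonadal sheath, fell to 69.0 FPKM in mutant-labelled worms, against 134 FPKM in wild type (-0.61 ± 0.18).

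Of 82 cytosolic ribosomal protein genes none passed by the authors' Cuffdiff test, 3 had an unadjusted p under 0.05 and 21 lay above the centre by the Wald test, and their median was -0.06 uncentred and 0.30 centred. They held 21.1% of summed FPKM in mutant-labelled and 19.8% in wild-type worms. Of 33 proteasome genes 29 fell and none rose by the deposited test, with a median of -0.17 (-0.52 uncentred), and none fell by the Wald test of the centred change. Of 70 mitochondrial ribosomal protein genes 33 fell and none rose by the deposited test, with a median of -0.05 (-0.40 uncentred), and likewise none fell by the Wald test of the centred change. The 10 genes of the mitochondrial genome held 2.89% of summed FPKM in mutant-labelled and 2.91% in wild-type worms, and none passed. Of 6 vitellogenin genes, which encode the yolk proteins, 3 fell, and vit-6 did not pass at 3017 FPKM in mutant-labelled and 3376 FPKM in wild-type worms (0.19 ± 0.28).

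Some of the steepest rises lay in small sets of genes for detoxification and defence. Of 34 cytochrome P450 genes, which oxidise foreign and endogenous compounds, 5 rose and 5 fell with a median of 0.44 (0.09 uncentred). One of them, cyp-14A5, had 100.7 FPKM in mutant-labelled and 6.89 FPKM in wild-type worms, a centred change of 4.22 ± 0.17. Of 44 UDP-glucuronosyltransferase genes, whose enzymes attach sugars to such compounds, 15 rose and 1 fell. ugt-29 had 118 FPKM in mutant-labelled and 13.6 FPKM in wild-type worms (3.47 ± 0.16), and ugt-24 had 23.7 FPKM in mutant-labelled and 1.28 FPKM in wild-type worms (4.56 ± 1.00), with a wide error. Of 41 ABC transporter genes, whose proteins export compounds from cells, 16 rose and 6 fell. pgp-5 had 75.9 FPKM in mutant-labelled and 12.4 FPKM in wild-type worms (2.97 ± 0.15), and pgp-6 had 50.5 FPKM in mutant-labelled and 15.3 FPKM in wild-type worms (2.07 ± 0.15). catp-3, a cation-pumping P-type ATPase, had 74.03 FPKM in mutant-labelled and 6.39 FPKM in wild-type worms (3.88 ± 0.16), while eat-6, the main sodium pump, had 331 FPKM in mutant-labelled and 369 FPKM in wild-type worms and did not pass.

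Defence genes rose in part. Of 14 caenacin and related peptide genes, antimicrobial peptides of the epidermis, 7 rose and none fell. cnc-4 had 16.4 FPKM in mutant-labelled and 2.102 FPKM in wild-type worms (3.31 ± 0.31), and nlp-29 had 43.5 FPKM in mutant-labelled and 12.4 FPKM in wild-type worms (2.16 ± 0.22). Of 19 fungus-induced protein genes 7 rose and none fell, and fip-6 had 14.4 FPKM in mutant-labelled and 1.57 FPKM in wild-type worms (3.54 ± 0.36). The lysozyme gene lys-7 had 252 FPKM in mutant-labelled and 71.7 FPKM in wild-type worms (2.16 ± 0.15), and lys-1 had 411 FPKM in mutant-labelled and 270 FPKM in wild-type worms (0.96 ± 0.15). Of 73 C-type lectin genes 24 rose and 7 fell. clec-63 had 753 FPKM in mutant-labelled and 544 FPKM in wild-type worms (0.82 ± 0.15), and clec-87 had 579 FPKM in mutant-labelled and 1066 FPKM in wild-type worms (-0.53 ± 0.15).

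Single regulators of defence rose in lists that for the most part did not. zip-2, a bZIP factor of the surveillance of blocked translation, had 123.2 FPKM in mutant-labelled and 69.0 FPKM in wild-type worms (1.19 ± 0.15). irg-1 and irg-2, genes known to depend on zip-2, had 24.9 and 12.99 FPKM in mutant-labelled worms and 3.86 and 1.61 FPKM in wild type, with centred changes of 3.04 ± 0.23 and 3.36 ± 0.25. tir-1, an adaptor upstream of the p38 kinase, had 9.29 FPKM in mutant-labelled and 5.56 FPKM in wild-type worms (1.09 ± 0.18), in a list of p38 and other MAP kinase genes with 2 rises and 12 falls among 25 and a median of -0.10. cebp-1, another bZIP factor gene, had 9.203 FPKM in mutant-labelled and 5.09 FPKM in wild-type worms (1.204 ± 0.20). Of the whole list of 49 stress and longevity factors 5 rose and 15 fell, with a median of 0.37 (0.02 uncentred).

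**Figure D4:**
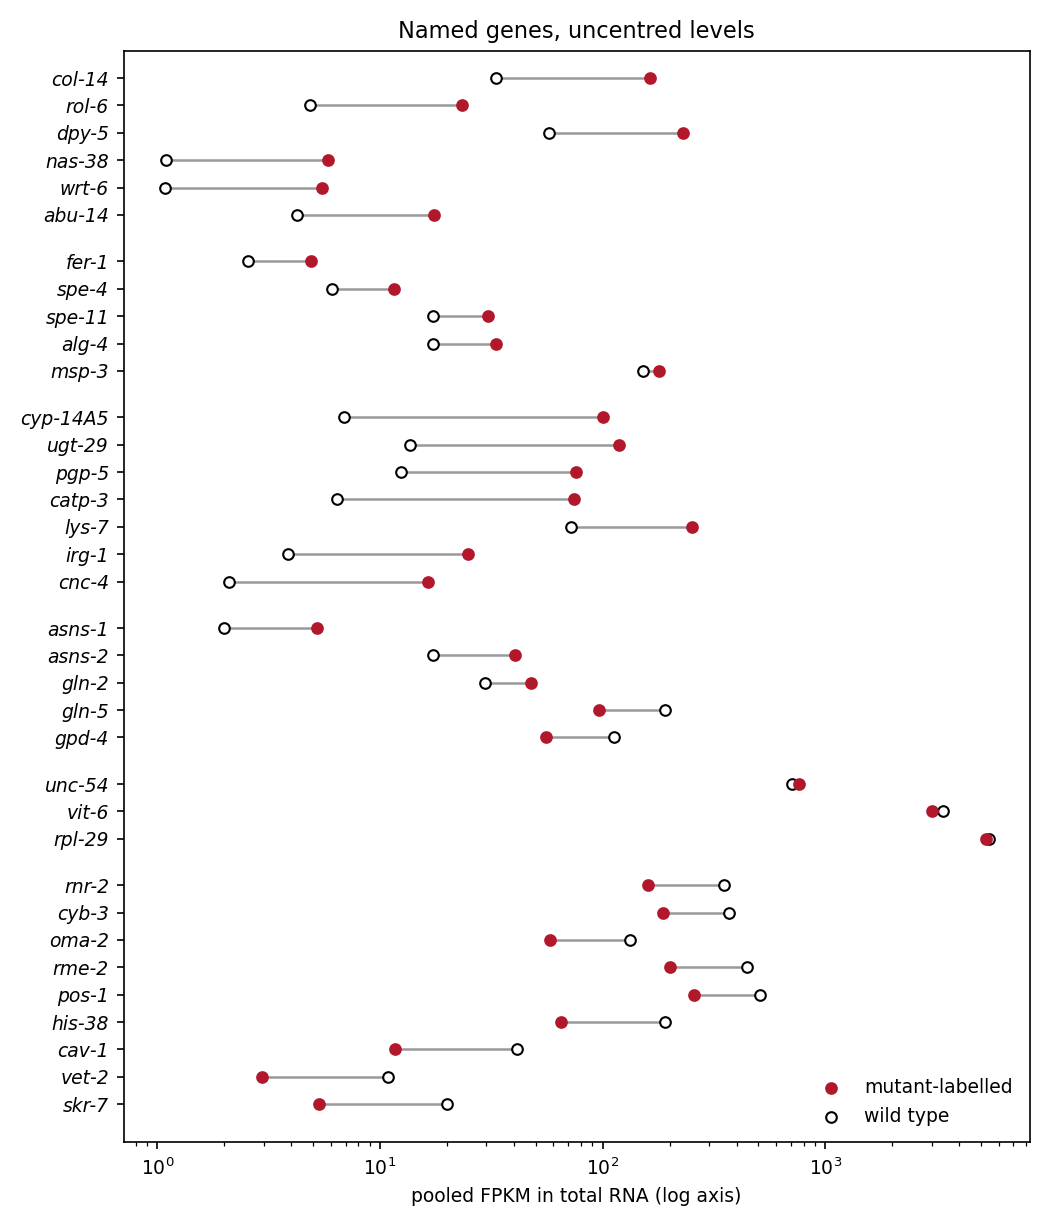
Pooled FPKM of named genes on a log axis, filled points for mutant-labelled and open points for wild-type worms, joined by a line for each gene. The line of cyp-14A5 runs over more than a decade, while unc-54, vit-6 and rpl-29, none of which passed, have nearly the same FPKM in both groups.

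In metabolism a list of genes for glutamate, glutamine and ornithine was looked at. Enzymes of proline synthesis and breakdown other than pycr-1 are not described here. Of the 21 genes 3 rose (14.3%) and 5 fell (23.8%), with a median of 0.37 (0.02 uncentred). Both shares were below those of all members, 17.4% and 32.6%. The rises were the asparagine synthetases asns-1, at 5.22 FPKM in mutant-labelled and 2.00 FPKM in wild-type worms (1.74 ± 0.22), and asns-2, at 40.5 FPKM in mutant-labelled and 17.2 FPKM in wild-type worms (1.58 ± 0.16), and the glutamine synthetase gene gln-2, at 47.6 FPKM in mutant-labelled and 29.8 FPKM in wild-type worms (1.03 ± 0.16). The related synthetase genes gln-5 and gln-6 fell, at 96.1 and 224 FPKM in mutant-labelled worms and 191 and 431 FPKM in wild type, with centred changes of -0.64 ± 0.15 and -0.59 ± 0.15. In polysomal RNA these 2 genes stood at -1.55 and -1.42. gdh-1, glutamate dehydrogenase, had 643 FPKM in mutant-labelled and 740 FPKM in wild-type worms and did not pass.

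In glycolysis 10 of 22 genes fell and 1 rose by the deposited test, with a median of 0.05 (-0.30 uncentred), and 3 fell and 3 rose by the Wald test of the centred change. In the citric acid cycle 6 of 28 fell and none rose by the deposited test, with a median of 0.10 (-0.25 uncentred), and none fell and 2 rose by the Wald test. gpd-1 and gpd-4, copies of the glyceraldehyde phosphate dehydrogenase gene that are close in sequence, had 93.96 and 55.7 FPKM in mutant-labelled worms and 179 and 113 FPKM in wild type, with centred changes of -0.58 ± 0.15 and -0.67 ± 0.15. pfk-1.2, a phosphofructokinase gene, rose, at 6.94 FPKM in mutant-labelled and 3.495 FPKM in wild-type worms (1.34 ± 0.19). Nucleotide synthesis counted 9 falls and 2 rises among 19, with a median of -0.05 (-0.40 uncentred). dut-1, which clears dUTP, had 93.3 FPKM in mutant-labelled and 195.7 FPKM in wild-type worms (-0.72 ± 0.15).

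By position, the X chromosome stood apart from the autosomes among genes at 20 FPKM or more. Of 1607 genes on X 16.8% rose and 14.7% fell, and of 10752 genes on autosomes 17.5% rose and 35.3% fell. The median centred change was 0.45 on X and 0.15 on autosomes, a difference of 0.30. The germline of the worm keeps most of the X chromosome silent, and X carries few genes of germline division. Among genes from 20 to 100 FPKM the median was 0.48 over 249 genes on X, and -0.18, -0.16, -0.18, -0.14 and -0.12 on chromosomes I to V. At 100 FPKM or more it was 0.36 on X and from 0.06 to 0.13 on I to V. At lower levels X was not the higher. From 1 to 5 FPKM its median was 0.58, against 0.62 to 0.70 on I to V. From 5 to 20 FPKM it was 0.35, against 0.33 to 0.59. Members on X had a wild-type median of 6.82 FPKM, and those on autosomes one of 20.3 FPKM. X also held 27 of the 81 genes that fell 2-fold (33.3%) and 151 of the 1541 that rose 2-fold (9.80%), against 12.99% of all members.

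**Figure D5:**
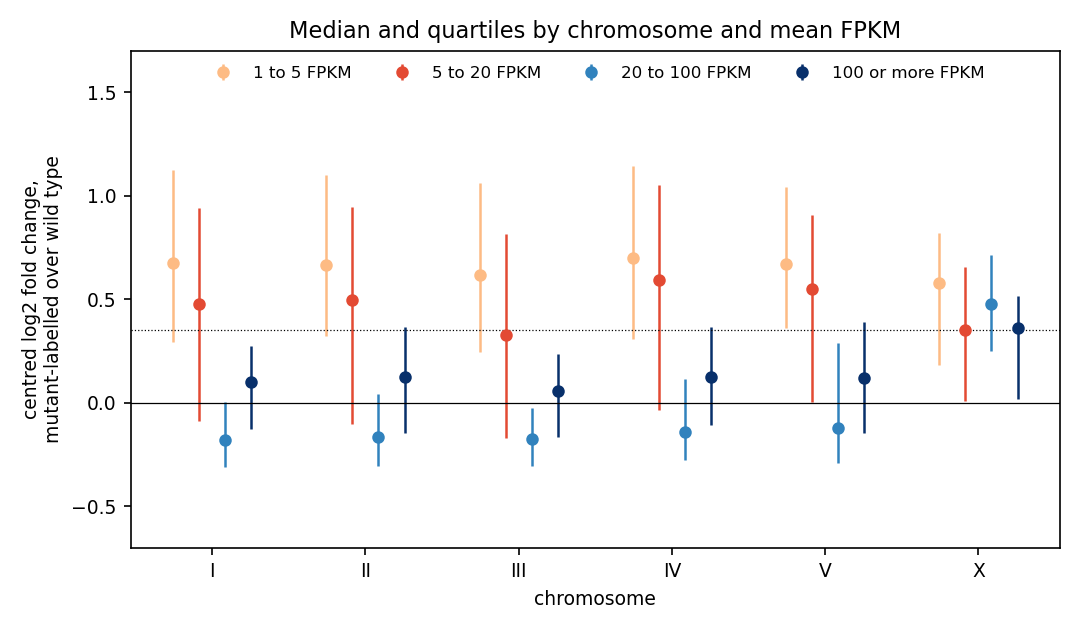
Median (point) and quartiles (bar) of the centred log2 fold change by chromosome and by mean FPKM. Genes from 20 to 100 FPKM have medians below 0 on chromosomes I to V and of 0.48 on X, and the dotted line marks equal FPKM in both groups.

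Among autosomes, chromosome III had the lowest median at -0.02, with 867 of 2029 genes fallen (42.7%) and 244 risen. Chromosome V had the highest at 0.38, with 27.4% of 2235 fallen and 20.9% risen. Members on III also stood at higher levels, with a wild-type median of 28.1 FPKM against 11.3 FPKM on V. At like levels the medians of III and V were 0.62 and 0.67 from 1 to 5 FPKM and 0.33 and 0.55 from 5 to 20 FPKM. They were -0.18 and -0.12 from 20 to 100 FPKM and 0.06 and 0.12 at 100 FPKM or more. Chromosomes IV and V each held 22.3% of the genes that rose 2-fold, against 17.7% and 18.1% of all members.

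Some of the genes that rose 2-fold lay side by side, though most had no such neighbour. Split into runs of neighbouring members, the 1541 genes gave 887 runs of 1 gene, 205 of 2, 55 of 3, 16 of 4 and 3 of 5. Whether more of them were neighbours than their number alone would give was not tested. On chromosome I from 4716059 to 4735276, W09C3.8, C10H11.7, ugt-26, ugt-28 and ugt-25 had centred changes from 1.07 to 2.47. On chromosome V from 4025091 to 4043599, K09D9.1, C49G7.12, C49G7.10 and irg-2 had changes from 2.84 to 3.36. A further run of 4 on V, from 8047044 to 8085241, held catp-3 and sth-1, a gene of the spermatheca. Neighbouring genes can share reads where they overlap, and whether the counting used strand is not given in the sources used here.

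Polysomal RNA of the same harvests, from other libraries, was read beside total RNA without a test of the difference. Of the 12086 members tested there 1610 rose (13.3%). Of 1525 genes that rose 2-fold in total RNA and were tested in polysomal RNA, 1206 rose there too (79.1%) and none fell. Among the 11881 genes at 1 FPKM or more in both of its groups, 7.47% rose 2-fold in polysomal RNA, 887 in all, and 1.65% fell 2-fold. The genes that rose 2-fold in both fractions numbered 727, which were 47.2% of the rises in total RNA and 81.96% of those in polysomal RNA. Those that fell 2-fold in both numbered 45, which were 55.6% of the falls in total RNA and 22.96% of those in polysomal RNA. A few genes with extreme values in total RNA had none in polysomal RNA. D1046.18,cfim-2, an entry of several overlapping genes, had 461 FPKM in mutant-labelled and 86.3 FPKM in wild-type total RNA (2.77 ± 0.60) and a centred change of -0.05 in polysomal RNA. pud-2.2, listed under its near-identical copy pud-2.1, had 1.26 FPKM in mutant-labelled and 69.7 FPKM in wild-type total RNA (-5.44 ± 0.33), and 0.79 in polysomal RNA. unc-49, a GABA receptor gene, had 9.07 FPKM in mutant-labelled and 46.4 FPKM in wild-type total RNA (-2.004 ± 0.18), and 0.49 in polysomal RNA. Such genes were picked after their values were seen.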

How the data were processed

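Total RNA of 7 libraries was compared, 4 mutant-labelled and 3 wild type. Per the submitters' processing notes the tools were Cuffdiff 2.2.1, StringTie 1.3.4d, HISAT2 2.1.0 and FastQC 0.11.7, on build WBcel235; their settings, the strandedness and the treatment of reads that match several genes are not given in the sources used here. Per the file headers, the authors deposited 1 pooled FPKM per gene and group, the log2 fold change, a test statistic (a signed score), and a p-value and q-value; the q-values were adjusted over all 6 comparisons of the table, and the smallest, 0.000207, is shared by 2056 members. Depth is unknown, and no interval between libraries could be made.

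From these values the log2 ratio of FPKM without a pseudocount was computed with Python 3.11.15 and pandas 2.3.3 and centred on the median of genes that reached 5 FPKM in each group. The SE was derived from the deposited log2 fold changes and test statistics of all 6 comparisons, and the division of each group's variance by its libraries was chosen after values were seen. The Wald and Benjamini-Hochberg calculations were tested on simulated data with scipy 1.17.1. The simulated noise was drawn from the same SE that the Wald test uses. It could therefore check the calculation only, and not whether that SE is of the right size. Of the members, 248 entries carry several gene names and 26 are not in the annotation used for gene types.

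The members and lists were chosen with earlier results of these data known. Genes are named by rule: pycr-1; the 15 highest and 15 lowest centred changes that passed at 20 FPKM or more in both groups; the 10 largest rises and falls in FPKM; and, per list, up to 4 members that passed with the largest change and, for lists described as not changing, up to 3 with the highest mean, which after values were seen was extended to other lists. Other genes named were picked after their values were seen, among them irg-1, irg-2, vet-2, pud-2.2, F54B8.4, parg-2 and the genes of annotation terms and runs. A planned search of promoters for motifs was not run, and no sequence is shown, as sequence tables were not used here. Alternatives were another minimum, centre, pseudocount, adjustment and test.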

Additional observations from a re-analysis of the deposited data

Results flagged for a closer look

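Signal appeared in mutant-labelled total RNA at 5 genes that the authors' deposited table lists at 0 in wild type in both fractions, and which the minimum of 1 FPKM in both groups left outside the comparison. Within 6.3 kb of chromosome IV lay 3 of them: the pseudogene D2096.16 (8393459 to 8394201) at 5.38 FPKM, timm-17B.2 (8396493 to 8397950), a gene for a mitochondrial import protein, at 20.6 FPKM, and the pseudogene M116.2 (8398923 to 8399762) at 6.40 FPKM. In mutant-labelled polysomal RNA the authors' deposited table gives them 0.720, 11.6 and 0.776 FPKM. The entry next to them, D2096.10,D2096.11, had 6.24 FPKM in mutant-labelled and 11.6 FPKM in wild-type total RNA, and sdz-25 on the other side is listed at 0 in all groups. The related gene timm-17B.1 on the same chromosome had 91.4 FPKM in mutant-labelled and 122.4 FPKM in wild-type total RNA in the authors' deposited table. The long non-coding RNA linc-65 (chromosome V, 4759370 to 4760334) had 0.916 FPKM and the pseudogene C14A6.10 (chromosome V, 18156524 to 18156811) 0.651 FPKM in mutant-labelled total RNA. By the authors' deposited table all 5 passed in total RNA, and no cause was tested.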

How the results depend on the processing

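No paired analysis was possible because the table holds 1 pooled value per group, so neither a replicate block nor leaving out a library could be run. The 2147 rises became 1023 at a minimum of 5 FPKM, which tests fewer genes, 367 with the statistics as they stand and 3981 by the Wald test of the centred change, and the 4036 falls became 278 and 970 under these last tests. The 1541 rises of 2-fold became 584 at 5 FPKM, 362 with the statistics as they stand, 691 without centring, 1018 with the centre of genes at 1 FPKM or more and 802 with that of ribosomal protein genes. The 81 falls of 2-fold became 23 at 5 FPKM, 261 with no minimum, 264 without centring, 163 and 211 with these other centres and 29 with 1 FPKM added. The median of 0.21 over all members became 0 at 5 FPKM, -0.14 without centring, 0 with the centre at 1 FPKM and -0.0898 with the ribosomal centre. Lists of 10 or more members with at least 50% fallen numbered 22, and 1 with the statistics as they stand and 3 by the Wald test; lists with at least 50% risen numbered 9, and 5 at 5 FPKM, 0 with the statistics as they stand and 35 by the Wald test. Beyond fewer genes and a shifted centre, the cause was not tested. The gap between X and autosomes ran from 0.26 to 0.43, and the median at 20 to 100 FPKM lay 0.69 to 0.84 below that at 1 to 5 FPKM. Another centre, adjustment or test leaves both differences as they are and is no test of them. The share of 2-fold rises that rose again in polysomal RNA was 75.9% or more in each setting, and that of 2-fold falls that fell again 81.8% or more. For falls, the share of all members that fell in polysomal RNA was not computed, so the second value has nothing to be read against. Of 540 named genes that passed, 147 did so with the statistics as they stand, 394 by the Wald test and 535 with the adjustment over this comparison alone; other centres and an added 1 FPKM leave the deposited q-values as they are and are no test of these calls. The self-consistency of these calls is limited by the missing spread between libraries, by unknown depth, and by near-identical or overlapping genes.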

Other observations

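Further families were read in the same way. Of 52 transthyretin-related genes, small secreted proteins of nematodes, 20 rose and 2 fell with a median of 0.77 (0.42 uncentred), and ttr-14 had 89.2 FPKM in mutant-labelled and 32.9 FPKM in wild-type worms (1.79 ± 0.17). Of 77 F-box A genes, whose proteins choose targets for the ubiquitin ligase, 21 rose and 15 fell; fbxa-128 had 8.85 FPKM in mutant-labelled and 1.28 FPKM in wild-type worms (3.14 ± 0.26), and fbxa-215 had 77.9 FPKM in mutant-labelled and 149 FPKM in wild-type worms (-0.59 ± 0.15). Of 32 nematode-specific peptide genes of the nspa to nspe families 16 rose and 1 fell, and nspb-6 had 27.2 FPKM in mutant-labelled and 9.02 FPKM in wild-type worms (1.94 ± 0.25). Of 42 MATH and BATH domain genes 1 rose and 20 fell, with a median of -0.04 (-0.39 uncentred). Of 138 nuclear hormone receptor genes 11 rose and 16 fell.

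The steepest single rises included genes with little or no assigned function. F54B8.4 (chromosome V, 15816464 to 15817143) had 77.8 FPKM in mutant-labelled and 4.16 FPKM in wild-type worms, a centred change of 4.58 ± 0.26 and of 4.40 in polysomal RNA. parg-2, a gene for an enzyme that removes poly(ADP-ribose), had 29.6 FPKM in mutant-labelled and 1.79 FPKM in wild-type worms (4.39 ± 0.22). Of 18 insulin-like peptide genes 3 rose (16.7%) and 2 fell (11.1%). Among them ins-37 and ins-7 had centred changes of 1.67 ± 0.21 and 1.58 ± 0.30, less steep than the rises above.

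Of the tested genes outside the members, 809 stood under 1 FPKM only in wild type, of which 450 passed, and 297 stood under 1 FPKM only in mutant-labelled worms, of which 150 passed. The genes Y49G5A.1, D2023.8 and C52G5.3 are listed by the authors' deposited table at 0 in both fractions of the mutant-labelled group and stood at 0.614, 3.03 and 0.574 FPKM in wild-type total RNA.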
